A study of Mus with 2 samples.

Results

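The cytosolic ribosomal protein genes were followed through the cells of a mouse hematopoietic stem cell (HSC) sort. Members were the rows whose gene symbol begins with Rpl or Rps and a digit, together with Rpsa, Rplp0, Rplp1 and Rplp2. Symbols marked as pseudogenes (-ps), retrogenes (rt) or Rps6k kinases were left out. The rule took 86 of 27998 rows. They comprised 46 proteins of the large subunit, 31 of the small subunit and 7 tissue-restricted or duplicated paralogs. The remaining rows were Rpl6l, which RefSeq lists as a pseudogene, and Rps19bp1, a nucleolar protein that binds RPS19 and is no part of the ribosome. Of these, 83 reached 20 unique molecular identifiers (UMIs, each tagging 1 captured RNA molecule) in the comparisons below. The others were Rpl3l, Rpl10l and Rpl39l.

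LSK FLT3- CD150+ CD48- cells were sorted from tibias and fibulas of mice aged 8 to 12 weeks. The groups were Mx1-Cre Id2+/+ and Mx1-Cre Id2Δ/Δ (Id2-deleted), each a pool of 5 mice, 1000 sorted cells and 1 library on the 10x Genomics Chromium. Mx1-Cre is a recombinase under an interferon-responsive promoter, and recombination was induced with pIpC 2 weeks before purification. Any cell that responds to interferon can recombine, so deletion is not limited to HSCs. Retained Id2+/+ cells held 22 UMIs of Id2, or 10.3 CPM (6.46 to 15.6), where CPM are UMIs scaled to a total of 1000000, and retained Id2-deleted cells held 0, with an upper limit of 0.787 CPM. These counts run as the labels say. The tagged 3' end lies outside the floxed part, which holds the start of the gene, so the reads do not look at the deleted sequence itself. With 1 library per genotype there was no replicate check and no test. All intervals are 95% intervals for counting error only. Differences between genotypes and differences between libraries cannot be told apart.

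After calling of cells, 333 Id2+/+ and 625 Id2-deleted cells were divided into kinds by clustering. Members and rows named as ribosomal protein pseudogenes were left out. Cells in clusters that met the marker limit for no mature lineage tested are called retained cells, and they numbered 262 and 416. They include clusters with platelet markers, since such markers were not used to set cells aside, and a cluster led by the B-lineage genes Vpreb3 and Vpreb1. Erythroid-like cells numbered 35 and 156, neutrophil-like cells 27 and 40, and hemoglobin-rich cells 9 and 13. The erythroid-like, neutrophil-like and hemoglobin-rich cells are of kinds that the sort gate is meant to exclude. Summed HSC markers stood at 1902 and 1607 CPM in retained cells, compared with 221 and 191 CPM in erythroid-like and 160 and 82.6 CPM in neutrophil-like cells. All 11 neutrophil markers were read in the neutrophil-like cells, at 71631 and 91926 CPM in sum. Free RNA, estimated by taking all hemoglobin in retained cells as free, made up 10.5% of retained UMIs in the Id2+/+ library and 5.41% in the Id2-deleted library. The libraries shared 1 cell barcode.

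Each cytosolic ribosome joins a small subunit, which reads the messenger RNA, to a large subunit, which forms the peptide bond. Their proteins are made in matched amounts and their messenger RNAs carry a 5' terminal oligopyrimidine (TOP) tract, through which mTOR signaling controls translation. HSCs are known for a low rate of protein synthesis. Loss of 1 copy of genes such as RPS19, RPL5 or RPL11 causes Diamond-Blackfan anemia, and RPS14 lies in the segment lost in 5q- syndrome, so the erythroid lineage is known to be sensitive to ribosomal protein dosage. A UMI stands for 1 captured molecule, so CPM are not scaled by transcript length. How well each gene was captured and mapped was not measured, so CPM of different genes are levels as read. Members that have a near-identical pseudogene copy carry a further uncertainty.

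Ribosomal protein messenger RNA made up a large part of the RNA read in these cells. Members took 30.24% of all UMIs in retained Id2+/+ cells (30.16 to 30.31) and 30.96% in retained Id2-deleted cells (30.91 to 31.01). The large subunit supplied 16.7% and 17.0%, and the small subunit 13.1% and 13.5%. In single retained cells the member share ran from 22.7% to 38.1% around a median of 30.5% in the Id2+/+ library. It ran from 22% to 40.7% around a median of 31.7% in the Id2-deleted library. The ranges overlapped almost completely. The median retained cell held 2250.5 member UMIs in the Id2+/+ and 3097 in the Id2-deleted library, at median depths of 7081 and 9663 UMIs.

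Members were not read at equal levels. Among the 77 subunit proteins, the median was 3811 CPM in retained Id2+/+ and 3749 CPM in retained Id2-deleted cells, and 65 and 58 of the 77 lay between 2000 and 8000 CPM. Among the highest in Id2+/+ cells were Rpl13 (7241 CPM, and 8109 CPM in Id2-deleted cells), Rpl32 (7066 and 8339) and Rps19 (7002 and 8003). Rpl13 and Rpl32 are large-subunit proteins and Rps19 is needed for maturation of the small subunit. Of these 77, only 4 lay under 1000 CPM in retained Id2+/+ cells. These were Rps27 (552 CPM), Rpl10 (281), Rpl27 (159) and Rps12 (83.4, at chr10:23785183-23787383 of GRCm38.p6, the NCBI name of the mm10 release). All 4 proteins are standard parts of the ribosome, and each has a pseudogene row in these matrices that held more UMIs than the gene itself, as given below. Their levels are therefore uncertain.

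Erythroid-like cells carried the largest ribosomal protein RNA content per cell. The median erythroid-like cell held 10796 member UMIs in the Id2+/+ library and 11834 in the Id2-deleted library, against 2250.5 and 3097 in retained cells. These cells were also deeper as a whole, with medians of 37549 and 40038.5 UMIs. As a share of all UMIs the members stood at 29.15% (29.06 to 29.24) and 29.42% (29.37 to 29.46). The log2 ratio to retained cells was -0.053 (-0.059 to -0.047) in the Id2+/+ library and -0.074 (-0.077 to -0.071) in the Id2-deleted library, but 0.194 and 0.112 after TMM scaling, which sets the bulk of genes rather than the UMI total equal. The median of all genes tested was itself at -0.268 and -0.301. Against that median the members were higher by 0.215 and 0.227 on the log2 scale, so the sign relative to the total depends on the scaling. Subtraction of free RNA gave -0.098 in the Id2+/+ library.

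**Figure D1:**
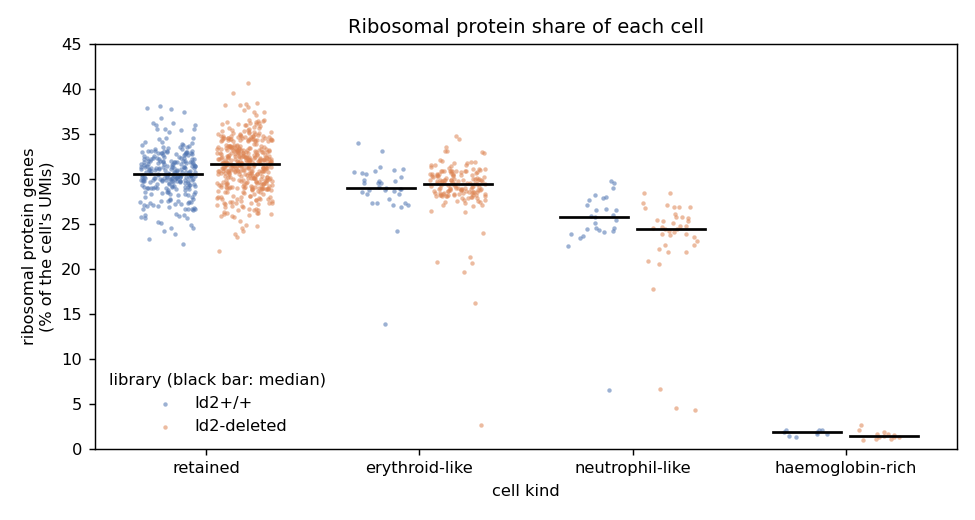
Percent of each cell's UMIs that came from the 86 ribosomal protein genes, by cell kind (x axis) and library (color), with 1 point per cell and the median as a black bar. Medians were 30.5% and 31.7% in retained and 25.8% and 24.5% in neutrophil-like cells, as shares of all UMIs; after TMM scaling the order of erythroid-like and retained cells turned in both libraries and that of neutrophil-like and retained cells in the Id2+/+ library.

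Few members moved apart from the set in erythroid-like cells. In the Id2+/+ library 3 of 83 members were at least 1.5-fold higher than in retained cells with an interval excluding 1, where 16.2% of all genes tested were. Lower by the same rule was 1 of 83, where 33.7% of all genes were. In the Id2-deleted library the numbers were 2 higher (16.4% of all genes) and 1 lower (38.9%). Rps2 and Rps27l were higher in both libraries. Without a fold limit, the interval lay above 1 in both libraries for 23 members and below 1 in both for 41. In the Id2+/+ library it lay above 1 for 24 of 83 members and 21.4% of all genes, and below 1 for 42 members and 36.9% of all genes. In the Id2-deleted library it lay above 1 for 25 members and 25.6% of all genes, and below 1 for 46 members and 46.3% of all genes. TMM added 0.247 and 0.186 to the log2 ratio of every gene. Members with an interval above and below 1 then numbered 59 and 14 in place of 24 and 42 in the Id2+/+ library, and 49 and 24 in place of 25 and 46 in the Id2-deleted library.

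Rps2, a small-subunit protein close to the messenger RNA entry channel (chr17:24718121-24721927), was read at 3910 CPM in retained and 7042 CPM in erythroid-like Id2+/+ cells. In the Id2-deleted library the levels were 3769 and 6385 CPM. The log2 ratios were 0.85 (0.81 to 0.89) and 0.76 (0.74 to 0.79), and Rps2 had the highest log2 ratio of the 83 members in the Id2-deleted library. Rps27l, a paralog of Rps27 known as a p53 target (chr9:66944624-66949522), went from 577 to 1243 CPM in the Id2+/+ library and from 775 to 1309 CPM in the Id2-deleted library, with log2 ratios of 1.11 and 0.76.

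The ribosomal stalk recruits elongation factors. Rplp1 went from 3977 to 5644 CPM and from 3560 to 5084 CPM (log2 ratios 0.51 and 0.51). Rplp0, the stalk base, went from 6071 to 7646 CPM and from 6097 to 8150 CPM (0.33 and 0.42). Rplp2 stood at 0.12 (0.067 to 0.166) and 0.054 (0.026 to 0.082). The intervals of all 3 stalk genes lay above 1 in both libraries, as did those of 21.4% and 25.6% of all genes, while none of the 3 reached 1.5-fold. Rpl36al was read at 776 and 1173 CPM in the Id2+/+ library and at 939 and 1265 CPM in the Id2-deleted library.

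Toward the low end were Rps24, Rps14 and Rps28, which stayed below 0 after TMM scaling as well. Rps24, which processes the small-subunit RNA, went from 5333 to 3561 CPM in the Id2+/+ library and from 5247 to 3848 CPM in the Id2-deleted library (log2 ratios -0.58 and -0.45). Rps14 went from 6542 to 4450 CPM and from 7182 to 4962 CPM (-0.56 and -0.53). Rps28 stood at -0.45 and -0.59. Among the 19 genes linked to Diamond-Blackfan anemia, 1 was called lower and 0 higher in each library, where 33.7% and 38.9% of all genes were lower and 16.2% and 16.4% higher. Their median was -0.086 and -0.104, beside -0.268 and -0.301 for all genes tested. Rps19 stood at -0.43 (-0.47 to -0.39) and -0.44 (-0.46 to -0.42). Rpl5 differed by less than its counting error (-0.019, -0.092 to 0.054, and 0.025, -0.015 to 0.065), though with TMM it stood at 0.228 in the Id2+/+ library.

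The subunits were not shifted equally. The ratio of large- to small-subunit UMIs was 1.376 (1.367 to 1.385) in erythroid-like against 1.274 (1.268 to 1.280) in retained Id2+/+ cells. In the Id2-deleted library it was 1.328 (1.325 to 1.332) against 1.258 (1.253 to 1.262). Neutrophil-like cells stood at 1.273 (1.258 to 1.288) and 1.233 (1.222 to 1.245). The erythroid-like value was the highest of the 3 kinds in both libraries.

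Other genes of translation were set beside the members. Of 24 initiation factors, 21 had an interval above 1 in erythroid-like cells of each library, with medians of 0.43 and 0.36, where 21.4% and 25.6% of all genes had one. The 2 with an interval below 1 included Eif4a2, an RNA helicase of the cap-binding complex, at -1.43 and -1.15. The 14 elongation factors and other TOP genes had medians of -0.12 and -0.012. By the 1.5-fold rule 7 and 3 of the 24 initiation factors were higher, where 16.2% and 16.4% of all genes were, and 1 was lower in each library.

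Neutrophil-like cells had the lowest member share of the larger kinds. It was 25.27% (25.13 to 25.42) in the Id2+/+ library and 23.73% (23.62 to 23.85) in the Id2-deleted library. The log2 ratio to retained cells was -0.259 (-0.268 to -0.250) and -0.383 (-0.391 to -0.376), and with TMM scaling 0.123 and -0.004. All genes tested had medians of -0.446 and -0.511, so the members were 0.187 and 0.128 above them. A few cells stood apart. Members took under 10% of UMIs in 1 of 27 Id2+/+ and 3 of 40 Id2-deleted neutrophil-like cells. In these cells the granule genes S100a8 and S100a9 held 29.6% and 24.2% to 30.5% of the UMIs, against medians of 1.42% and 1.48% in the other cells. Without them the ratios were -0.232 and -0.323.

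In neutrophil-like cells 6 of 83 members were called lower and 1 higher in the Id2+/+ library, where 26.7% and 8.09% of all genes were. In the Id2-deleted library 20 were lower and 0 higher, where 30.7% and 7.82% of all genes were. TMM added 0.382 and 0.379, and members with an interval above and below 1 then numbered 41 and 15 in place of 6 and 65 in the Id2+/+ library, and 23 and 35 in place of 3 and 74 in the Id2-deleted library. Before TMM, 10.2% and 10.4% of all genes had an interval above 1 and 29.1% and 34.7% one below 1. By share of the UMI total, called lower in both libraries were 6 members, Rpl12, Rpl17, Rpl21, Rpl23, Rps24 and Rps4x. Rpl17 and Rpl23 are named here after their values were seen. Rpl21 (chr5:146832890-146837032), whose protein sits on the surface of the large subunit, was farthest from retained cells. It went from 4233 to 2092 CPM in the Id2+/+ library and from 3965 to 1942 CPM in the Id2-deleted library (log2 ratios -1.02 and -1.03). Rpl12, at the base of the stalk, went from 2076 to 1342 and from 1996 to 1258 CPM (-0.63 and -0.67). Rps4x, an X-linked small-subunit protein, stood at -0.67 and -0.69. Rpl5, which carries 5S RNA and binds MDM2 together with RPL11, stood at -0.55 and -0.71. Rpl11 was at -0.25 and -0.46, with 0.132 in the Id2+/+ library after TMM scaling. The other named genes of this group stayed below 0 with TMM in both libraries.

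Against this general direction, Rps29, Rpl36al and Rps27l had intervals above 1 in both libraries. Rps29, a zinc-finger protein of the small subunit (chr12:69157722-69159186), went from 6337 to 7745 CPM in the Id2+/+ library and from 4378 to 4939 CPM in the Id2-deleted library. Its log2 ratios were 0.29 (0.24 to 0.34) and 0.17 (0.12 to 0.23). Rpl36al stood at 0.48 and 0.41 and Rps27l at 0.74 and 0.14. Rpl41, which encodes the shortest ribosomal protein, stood at 0.30 in the Id2+/+ library and at 0.028 (-0.013 to 0.069) in the Id2-deleted library. Of the 14 elongation and TOP genes, 8 were called lower in each library, where 26.7% and 30.7% of all genes were. The list had medians of -0.63 and -0.69, beside -0.446 and -0.511 for all genes tested. Eef2, the translocation factor, was at -1.11 and -1.13, and Eef1a1, which delivers aminoacyl-tRNA, at -0.89 and -1.03. Initiation factors had medians of -0.059 and -0.048.

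To take out a shift of the whole set, each member was also expressed as a share of all member UMIs of its cell kind. The pattern across members was closely alike in the libraries, which shared no sample. For erythroid-like against retained cells, 74 of the 82 members with 100 UMIs in every sum had the same sign, with Pearson's r of 0.967 and Spearman's rho of 0.965 across genes. For neutrophil-like against retained cells it was 70 of 78, with r of 0.911 and rho of 0.887. Genes are not independent replicates, and the shares within a library sum to a fixed total, so these are descriptions with no p. The spread between members (SD of log2) was 0.304 and 0.269 for erythroid-like and 0.268 and 0.233 for neutrophil-like cells. On this measure Rps2 stood at 0.90 and 0.83 and Rps24 at -0.53 and -0.37 in erythroid-like cells. In neutrophil-like cells Rpl36al stood at 0.74 and 0.80 and Rpl21 at -0.76 and -0.65.

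**Figure D2:**
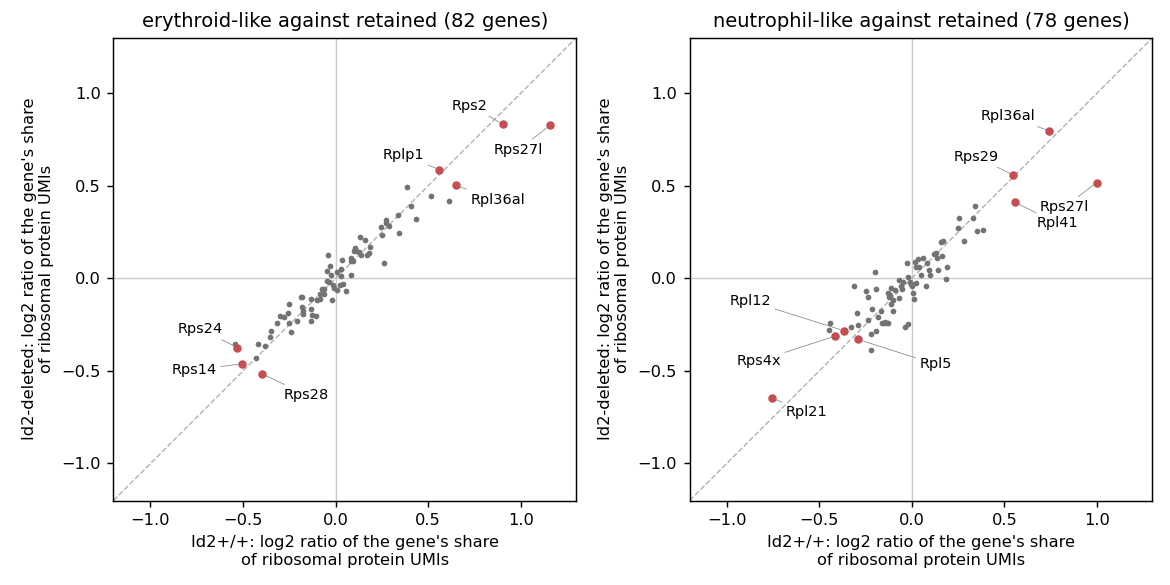
For erythroid-like (left, 82 genes) and neutrophil-like cells (right, 78 genes), the log2 ratio of each gene's share of ribosomal protein UMIs to that in retained cells, in the Id2+/+ library (x axis) and the Id2-deleted library (y axis). Each point is 1 gene with at least 100 UMIs in every sum, red points are genes named by the rule for this comparison, and the dashed line marks equal values; most points lie near it, with r of 0.967 and 0.911.

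The paralogs Rpl22l1 and Rpl36al changed their balance with their parent genes between kinds. Rpl22l1 (chr3:28805508-28807424) encodes a close relative of RPL22, the RNA-binding large-subunit protein encoded by Rpl22 (chr4:152324436-152334082). In retained cells there were 124 Rpl22l1 UMIs per 100 Rpl22 UMIs in the Id2+/+ library (118 to 130) and 137 in the Id2-deleted library (133 to 142). In erythroid-like cells there were 88.4 (83.1 to 93.9) and 92.8 (90.4 to 95.3). In neutrophil-like cells there were 164 (147 to 182) and 164 (150 to 178). The paralog thus outnumbered its parent in retained and neutrophil-like cells and was the rarer of the pair in erythroid-like cells, with no overlap of the intervals of any pair of kinds within a library. In erythroid-like cells Rpl22l1 was lower (log2 ratios -0.29 and -0.36) and Rpl22 higher (0.195 and 0.205) than in retained cells. With TMM, Rpl22l1 stood at -0.045 (-0.125 to 0.033) in the Id2+/+ library, within its counting error, and at -0.174 (-0.214 to -0.135) in the Id2-deleted library.

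Rpl36al, an autosomal copy of the X-linked Rpl36a, made 25.5 UMIs per 100 Rpl36a UMIs in retained Id2+/+ cells (24.1 to 26.9) and 27.4 in retained Id2-deleted cells (26.5 to 28.3). It made 40.5 and 42.0 in erythroid-like and 38.1 and 43.8 in neutrophil-like cells. Both other kinds lay above retained cells in both libraries. Rpl7l1, whose product works in ribosome assembly, stood at 5.27 and 4.95 per 100 Rpl7 UMIs in retained cells, at 4.76 and 4.83 in erythroid-like cells and at 6.74 and 8.98 in neutrophil-like cells. Its intervals in retained and erythroid-like cells overlapped in both libraries, and those in retained and neutrophil-like cells overlapped in the Id2+/+ library (4.72 to 5.88 and 5.24 to 8.56). Rps27l stood at 104.5 (96.4 to 113.3) and 352 per 100 Rps27 UMIs in retained cells, but with the retrogene row Rps27rt added to Rps27 at 35.1 and 139.5, which leaves this ratio uncertain. Rpl3l, known from striated muscle, Rpl10l and Rpl39l, both known from testis, were near 0. Retained cells held 1 and 0 UMIs of Rpl3l, 2 and 1 of Rpl10l, and 4 and 1 of Rpl39l.

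**Figure D3:**
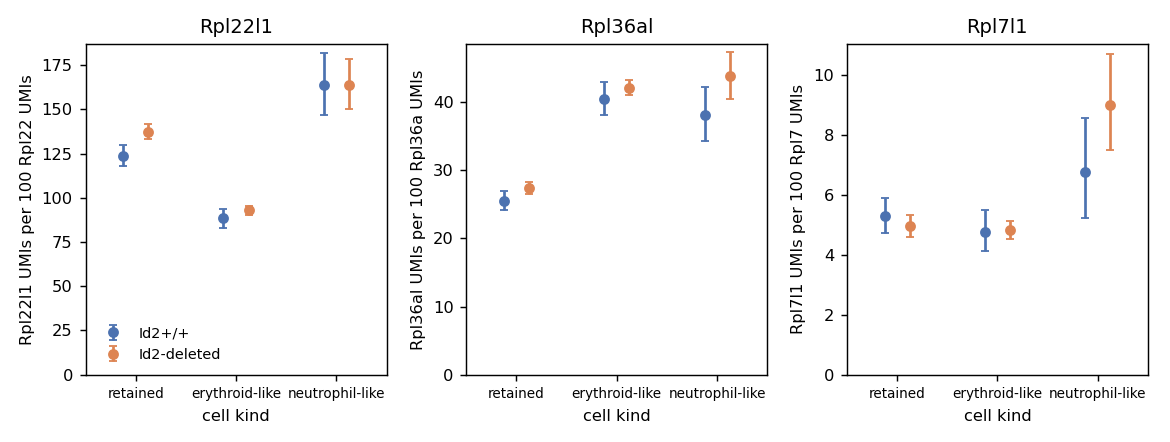
UMIs of Rpl22l1, Rpl36al and Rpl7l1 per 100 UMIs of their parent gene (y axes, from 0) in retained, erythroid-like and neutrophil-like cells of each library (color), with exact 95% counting intervals as bars. Rpl22l1 stood at 124 and 137 in retained and at 88.4 and 92.8 in erythroid-like cells, while Rpl36al stood higher in both other kinds than in retained cells.

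Hemoglobin-rich cells, in which globin RNA outweighs all other RNA, had members at 1.80% (1.70 to 1.89) and 1.58% (1.502 to 1.65) of UMIs. Hemoglobin took 87.2% and 88.3% of their UMIs. The median cell held 174 and 117 member UMIs, where the estimate of free RNA comes to 170.5 and 166.8 member UMIs per cell. The median was near this estimate in the Id2+/+ library and below it in the Id2-deleted library. The member level of these 9 and 13 cells therefore cannot be read as their expression.

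Within retained cells the member share differed between clusters that had been made without the members. HSC-class clusters carried high shares. Cluster 1, led by Meg3 and Fos and made up of 164 Id2+/+ cells, stood at 30.99% (30.88 to 31.09). Cluster 6, led by Gm4951 and Smtnl1 with Procr among its 10 leading genes, stood at 31.5% in 11 Id2+/+ cells and at 33.5% in 46 Id2-deleted cells (33.3 to 33.7). Cluster 2, without a class and led by Gsta4, stood at 32.8% in 152 Id2-deleted cells. Cluster 3, led by the G2/M genes Ccnb2 and Cenpa, stood at 28.1% in 10 Id2+/+ and 30.9% in 92 Id2-deleted cells. Cluster 4, led by Vpreb3 and the replication genes Ung and Lig1, stood at 27.6% in 10 Id2+/+ and 30.6% in 85 Id2-deleted cells. The platelet-class clusters were cluster 5, at 29.7% in 60 Id2+/+ cells, and cluster 7, at 30.1% in 5 Id2+/+ and 27.6% in 41 Id2-deleted cells. Cluster 7, whose leading genes also held the mitotic genes Aurkb and Top2a, was the deepest, with a median of 22282 UMIs in Id2-deleted cells. Clusters 1, 2 and 5 held cells of 1 library almost entirely, and a class and a library cannot be told apart there.

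**Figure D4:**
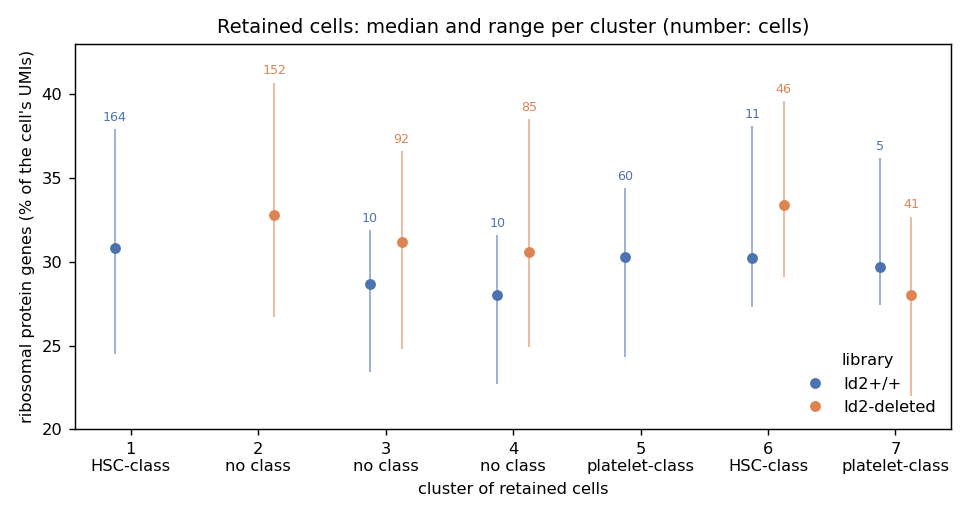
Ribosomal protein share of the UMIs of retained cells (y axis, from 20%) in each of the 7 clusters made without these genes, with the median as a point, the range over cells as a line and the number of cells above it, by library (color; a pair of Id2+/+ cells in cluster 2 is not drawn). In the Id2-deleted library the HSC-class cluster 6 had the highest median and the platelet-class cluster 7 the lowest.

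Cell by cell, the member share was set against gene lists. Values are Spearman's rho over 262 Id2+/+ and 416 Id2-deleted retained cells, with the UMIs of each list taken over non-member UMIs. They carry no p, since the cells of 1 library share its preparation and differ in depth. With the elongation and TOP list, rho was 0.662 and 0.724. With the HSC markers it was 0.169 and 0.503, with mitochondrial genes 0.367 and 0.603. With S-phase genes it was -0.228 and -0.377, with G2/M genes -0.268 and -0.411 and with platelet markers -0.166 and -0.280. Stress genes stood at -0.130 and -0.194 and markers of activated HSCs at 0.066 and 0.055. Depth itself gave -0.132 and -0.398, and its part in the other values was not tested. Initiation factors stood at -0.086 and -0.385, unlike the elongation and TOP list. Cell-cycle lists thus ran against the member share in both libraries.

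Between the genotypes the members as a whole differed little. In retained cells the log2 ratio of Id2-deleted over Id2+/+ was 0.034 (0.030 to 0.038), with -0.012 after subtraction of free RNA and 0.155 after TMM scaling. In erythroid-like cells it was 0.013 and in neutrophil-like cells -0.091. The median of all genes in retained cells was -0.084, from which the members differed by 0.118. The sign of the sum thus changed with the treatment of free RNA, and with pseudogene rows added it was 0.004. Members took 19.99% of the UMIs of barcodes with 1 to 100 UMIs (empty droplets) in the Id2+/+ library and 27.4% in the Id2-deleted library.

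Single members differed by more than their sum. By the 1.5-fold rule 10 of 83 were lower in retained Id2-deleted cells, where 8.32% of all genes tested were, and 0 were higher, where 1.69% were. The 10 were Rps12, Rpl27, Rpl10, Rpl6l, Rpl23a, Rpl9, Rps27, Rpl15, Rpl6 and Rps28, of which Rpl9 and Rpl15 are named after their values were seen. Together they went from 1.43% to 0.639% of UMIs, a ratio of 0.448 (0.441 to 0.455). The other 73 went from 28.8% to 30.3%, a ratio of 1.052 (1.049 to 1.055), with single log2 ratios from -0.53 to 0.43. These sets were divided by this same ratio, so a difference between their sums follows from the choice.

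Rps12 was farthest, at 83.4 CPM in Id2+/+ and 17.3 CPM in Id2-deleted retained cells (log2 ratio -2.27, -2.67 to -1.88). Rpl23a (chr11:78180935-78183584) stood at 2122 and 750 CPM (-1.501, -1.57 to -1.44). Rpl10 stood at 281 and 96.5 CPM and Rpl27 at 159 and 53.1 CPM. Rps28, with log2 ratio -0.80, was the mildest of the 10, at 3595 and 2059 CPM. At the other end were Rps27l (577 and 775 CPM, 0.43), Rps19bp1 (66.6 and 83.4 CPM, 0.32, 0.046 to 0.614), Rpl36al (0.28) and Rpl32 (0.24). Rps19bp1 stood at -0.203 in HSC-class clusters alone. There most Id2+/+ cells (164) were of cluster 1 and all 46 Id2-deleted cells of cluster 6, so different clusters were compared. Rps19, Rpl5, Rpl11 and Rps14 stood at 0.19, -0.015, 0.056 and 0.14, of which Rpl5 turned with TMM (0.106) and Rpl11 with free RNA subtracted (-0.001).

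The 10 members were lower in every kind compared. In erythroid-like cells 11 of 83 members were called lower (6.13% of all genes) and 0 higher (1.43%). In neutrophil-like cells 12 were lower (4.69%) and 0 higher (2.93%). Both lists held all 10 members called lower in retained cells. Rpl7a was added in both and Rps29 in neutrophil-like cells. Rps12 stood at -2.27, -2.26 and -1.86 in retained, erythroid-like and neutrophil-like cells. These kinds come from the same pair of libraries and are no replicates of the genotypes. The matching overlap over all genes is not given here, so the overlap cannot be read as particular to the members.

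The 10 members were chosen for their difference over these same retained cells, so their values cell by cell are a description. They took 0.727% to 2.08% of the UMIs of single Id2+/+ cells, with a median of 1.44%, and 0.331% to 1.13% of Id2-deleted cells, with a median of 0.655%. No Id2-deleted cell of 416 lay above the Id2+/+ median, and no Id2+/+ cell of 262 lay below the Id2-deleted median. In empty droplets the 10 members stood at 5445 CPM in the Id2+/+ and 4687 CPM in the Id2-deleted library (log2 ratio -0.22), where the other members stood at 194454 and 269288 CPM (0.47). There 3 of 83 members were called lower, where 25.9% of all genes were, and 19 were called higher, where 2.17% were. Within the 10, Rps28 stood higher in the empty droplets of the Id2-deleted library (0.21, 0.155 to 0.258), and the other 9 stood lower, from -0.27 for Rpl6 to -1.38 for Rps12.

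The same direction was seen in rows named as pseudogenes or retrogenes of the members. The matrices held 20 such rows, from 15 parent genes. They took 0.913% of UMIs in retained Id2+/+ cells and 0.287% in retained Id2-deleted cells, 3.19-fold more in the former (3.12 to 3.26). The folds were 3.22 in erythroid-like and 3.51 in neutrophil-like cells. In empty droplets the difference was smaller, with these rows at 3529 CPM in the Id2+/+ and 2276 CPM in the Id2-deleted library (log2 ratio -0.632). Single retained cells ranged from 0.464% to 1.55% in the Id2+/+ and from 0.083% to 0.610% in the Id2-deleted library. Reads that match a gene and a near-identical copy equally well cannot be told apart, which leaves values of both uncertain. Both libraries listed the same gene IDs and symbols. How such reads were counted, and whether both libraries were counted with the same gene models and settings, was not tested. A difference in counting and a difference between the genotypes cannot be told apart for these rows and their parents.

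The members lower in the Id2-deleted library were compared with the size of their pseudogene rows. Of the 15 parents, 7 had at least 30 pseudogene UMIs per 100 parent UMIs in retained Id2+/+ cells, and 7 of these 7 were called lower. Of the 8 parents under 30, 0 were called lower. Of the 68 tested members without a named pseudogene row, 3 were called lower, namely Rpl6, Rpl6l and Rps28. Rpl6l, which RefSeq itself lists as a pseudogene at chr10:111125836-111126780, bears the name of Rpl6. The threshold of 30 was chosen after the values were seen. In retained Id2+/+ cells, Rps12-ps3 held 1861 UMIs per 100 Rps12 UMIs, Rpl27-ps3 held 264 per 100 of Rpl27, the retrogene Rps27rt 198 per 100 of Rps27 and Rpl10-ps3 189 per 100 of Rpl10.

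With its pseudogene rows added, each of the 7 parents called lower stood below -1.3 on the log2 scale. The sums stood at log2 ratios of -1.54 for Rps12, -1.45 for Rpl27, -1.78 for Rpl10, -1.57 for Rpl23a, -1.49 for Rpl9, -1.56 for Rps27 and -1.33 for Rpl15. The sums of the 8 parents under 30 per 100 ran from -0.539 for Rpl7a and -0.496 for Rps26 to 0.118 for Rps18. Some of these came closer to 0 with the rows added, as Rpl13 (0.163 alone and 0.033 with its row) and Rpl36 (0.158 and 0.034), and others moved away from 0, as Rps26 (-0.360 and -0.496). Fau, which encodes a small-subunit protein fused to a ubiquitin-like protein and is not caught by the symbol rule, was also lower in retained Id2-deleted cells. It stood at 95.6 and 30.3 CPM (-1.66), while Gnb2l1, the small-subunit protein RACK1, stood at 1570 and 1650 CPM (0.072).

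**Figure D5:**
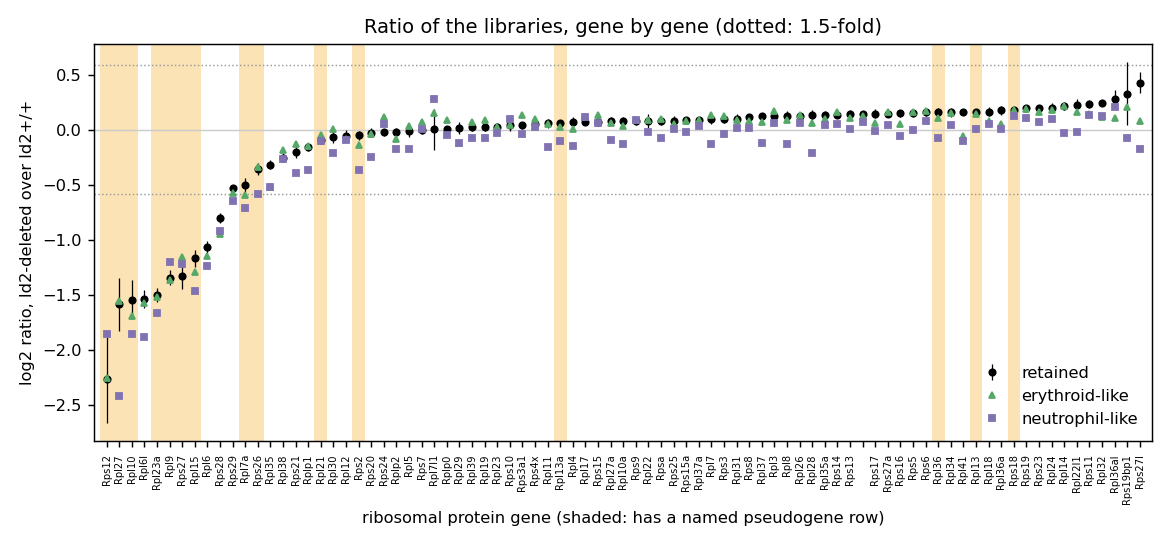
Log2 ratio of Id2-deleted over Id2+/+ (y axis) for the 83 members with at least 20 UMIs, ordered by the value in retained cells (black circles, with 95% counting intervals), with erythroid-like (green triangles) and neutrophil-like values (purple squares); shading marks the 15 members with a named pseudogene row and dotted lines the 1.5-fold limit. The 10 members at the left lie below the lower limit in all 3 kinds, and 7 of them are shaded.

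Leaving these genes out changed how the libraries lay relative to each other. Among the 15 nearest neighbors of retained cells, 89.2% of the neighbors of Id2+/+ cells and 99.6% of those of Id2-deleted cells came from the same library when all genes were used, where 38.6% and 61.4% of cells belonged to each. With members left out these shares were 86.5% and 99.3%, with pseudogene rows left out 85.0% and 99.2%, and with both left out 78.9% and 98.4%. Cells in clusters with over 95% of 1 library made up 79.7% of retained cells with all genes and with members alone left out, 79.1% with pseudogene rows alone left out, 82.6% with the 10 lower members left out, 73.3% with those and the pseudogene rows left out, and 55.8% with all members and pseudogene rows left out. The libraries stood apart on other genes as well, since the neighbors remained mostly from the same library.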

How the data were processed

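Single-cell RNA was measured in 1 library per genotype. The authors deposited unnormalized UMI counts for 737280 barcodes, and the submitters' processing notes name Cell Ranger 2.2.0 and mm10. Library totals were 8612217 UMIs (Id2+/+) and 17140713 UMIs (Id2-deleted). For the Id2-deleted library, a clause in the labels gives bones of Id2+/+ mice, against its title and genotype field, which set the group here.

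Cells were barcodes that reached 10% of the UMIs of a deep barcode (percentile 99 among the top 1000) and held under 10% mitochondrial UMIs (349 and 632 before the mitochondrial limit). Both libraries were clustered together in scanpy 1.11.5 and leidenalg 0.10.2, leaving out members and their named pseudogene rows. Settings were 2000 variable genes, 20 components, 15 neighbors and resolution 1, or 0.8 for retained cells. A cluster was another kind with at least 4 of its markers past a log2 fold of 1 in 25% of cells. No doublet caller was run. Pseudogene names and gene places came from RefSeq GRCm38.p6.

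Counts were summed per library and kind. CPM carry exact Poisson intervals and ratios exact conditional intervals, with 0.5 added to each count for log2 values. The scripts were tested on simulated data. Intervals cover counting error only, and the pooled mice give no estimate of spread between animals. Called means 1.5-fold, an interval excluding 1 and 20 UMIs. No paired or replicated test was possible.

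Named were the 4 highest and lowest subunit genes by CPM in retained Id2+/+ cells; the 4 highest and lowest by share of member UMIs in each kind contrast with 100 UMIs in every sum and the same sign in both libraries; the 4 highest and lowest by library ratio; paralogs with parents; Rps19, Rpl5, Rpl11, Rps14; and Rps19bp1. Some genes the rule takes are not reported here. Members and lists were chosen with earlier results of these data known. TMM factors came from edgeR 4.0.16.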

Additional observations from a re-analysis of the deposited data

Results flagged for a closer look

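Rpl22l1 moved in opposite directions between neutrophil-like and retained cells in the libraries, with a log2 ratio of 0.123 (0.017 to 0.227) in the Id2+/+ and -0.124 (-0.205 to -0.044) in the Id2-deleted library. The difference was not tested. As a share of member UMIs it stood at 0.38 and 0.26, above 0 in both, and after TMM scaling the Id2-deleted value was 0.255, so that the signs no longer differed. Rps23, which the rule for named genes does not take, was the other member with intervals on opposite sides, at 0.071 (0.01 to 0.132) and -0.056 (-0.103 to -0.011).

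A signal outside the called cells was the member share of barcodes with 1 to 100 UMIs. It was 19.99% in the Id2+/+ library and 27.4% in the Id2-deleted library, over 3985329 and 3846673 UMIs.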

How the results depend on the processing

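No paired analysis was possible because there was a single library of either genotype. Using members in the clustering or resolution 0.5 left the 5 summed ratios within their counting intervals, as did the labels' number of barcodes. In the order erythroid-like Id2+/+ and Id2-deleted, neutrophil-like Id2+/+ and Id2-deleted, all against retained cells, then the genotypes in retained cells, the values past those intervals were as follows. TMM gave 0.194, 0.112, 0.123, -0.004 and 0.155, with the sign turned wherever an originally negative value is now positive, while the medians of all genes moved from -0.268, -0.301, -0.446, -0.511 and -0.084 to -0.020, -0.115, -0.065, -0.131 and 0.036. Free RNA subtracted gave -0.098, -0.081, -0.299, -0.401 and -0.012, the last with the sign turned. Means over cells gave -0.085, -0.115, -0.275, -0.450 and 0.046. Hemoglobin and mitochondrial UMIs left out gave -0.042 and -0.065 for erythroid-like cells and 0.029 for the genotypes. Barcodes with 1000 UMIs and 500 genes gave -0.079 and -0.419 in the Id2-deleted library and 0.039 for the genotypes. No mitochondrial limit gave -0.117 and -0.081 for erythroid-like cells. For the genotypes, pseudogene rows added to members gave 0.004, and cells with UMIs of Y-linked genes but none of Xist 0.059. Chosen after seeing the data were leaving out members with a pseudogene row or called lower (0.078), HSC-class clusters only (0.112), and leaving out cells under 10% member UMIs (-0.232 and -0.323 for neutrophil-like cells). The HSC-class value sets 164 Id2+/+ cells of cluster 1 and 11 of cluster 6 against 46 Id2-deleted cells, all of cluster 6. The causes were not tested.

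For named genes, 65 values were recomputed, namely the ratio of the genotypes and, between kinds, the share of member UMIs, which scaling does not move. Among those with an interval excluding 0, 5 changed sign under some alternative. Values with an interval holding 0, such as Rpl5, are not counted. Per UMI total, TMM also turned ratios between kinds, among them Rpl32 in erythroid-like (0.09) and Rpl11 in neutrophil-like Id2+/+ cells (0.132). Id2-deleted over Id2+/+ turned for Rpl11 with free RNA subtracted (-0.001), and with TMM for Rpl12 (0.064), Rpl21 (0.026) and Rps2 (0.068). It also turned for Rpl21 (0.017) and Rps19bp1 (-0.203) in HSC-class clusters, and for Rps2 (0.035) in cells with Y-linked UMIs. HSC-class cells came mostly from cluster 1 in the Id2+/+ library and only from cluster 6 in the Id2-deleted library. Members called under a floor of 100 UMIs or no floor stayed within 1.5 times the counts given, in every comparison of the report that was recomputed.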

Other observations

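The erythroid-like cells of the Id2-deleted library included 1 cell with a member share of 2.66%, in which hemoglobin took 57.9% of the UMIs, against a median of 0.406% in the others.

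Rpl22l1 per 100 Rpl22 UMIs also varied among retained clusters. The values in Id2-deleted cells ran from 125 in cluster 7 and 126 in cluster 4 to 142 in cluster 6 and 166 in cluster 3. In Id2+/+ cells they ran from 112 in cluster 5 to 170 in cluster 3, the cluster led by G2/M genes, which held 10 Id2+/+ cells.

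Rps27l was read at 979 CPM in cluster 7 and 917 CPM in cluster 3 of the Id2-deleted library, and at 472 CPM in the HSC-class cluster 6.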
